A study of Mus musculus with 12 samples.

Results

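The genes followed here encode matricellular proteins of the mouse, 10 in all: Ccn1, Ccn2, Ccn3, Ccn4 and Ccn5 of the CCN family, the thrombospondin genes Thbs1 and Thbs2, and Sparc, Postn and Tnc. They were found on the array by symbol, with the older names Cyr61, Ctgf, Nov, Wisp1 and Wisp2 brought up to date to Ccn1 to Ccn5, and all 10 were present, with 18 of the 41174 gene probes and among 18295 named genes. All RNA came from 3T3-L1 cells, mouse preadipocytes that fill with lipid once differentiated; the 12 samples were mature adipocytes, electroporated by Amaxa and lysed 2 days later. There were 3 groups of 4 arrays: small interfering RNA as a control (control-si), against the deubiquitinase gene Usp7 (USP7-si), and against TIP60 (TIP60-si), the histone acetyltransferase whose gene symbol is Kat5. Each 2-colour Agilent array set 1 adipocyte sample against 1 shared reference of undifferentiated 3T3-L1 RNA, and in each group Cy3 marked the sample on arrays 1 and 3 and Cy5 did so on arrays 2 and 4. The labels give neither the sequences of the interfering RNAs nor whether replicates were separate cultures, so the spread between arrays may be technical, and all samples come from 1 cell line. The 10 genes were chosen by symbol as a family, with their log2 ratios over the reference and the differences between groups already known, so those values are given below as a description. No p-value is printed for them, and whether a gene passed the threshold of the model over all probes is part of that description and supports nothing.

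Matricellular proteins are secreted into the extracellular matrix, where they act on cells through integrins and other surface receptors and on growth factor activity more than they bear load. CCN genes such as Ccn1 and Ccn2 are textbook targets of serum response factor and of the Hippo pathway effectors YAP and TAZ, which act through TEAD factors, and Ccn2 and Thbs1 also answer to TGF-beta. Preadipocytes make much matrix, and the program is reshaped as they round up and store fat.

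Every value is a log2 ratio of adipocyte over reference, corrected for the dye, or a difference between groups of such ratios; each gene is represented by its brightest probe unless another is named. The reference is 1 RNA, so its own spread is not in the errors. Usp7 stood at -1.76 ± 0.25 (SD, n = 4) in USP7-si against -0.11 ± 0.12 in control-si, and Kat5 at -1.18 ± 0.055 in TIP60-si against -0.18 ± 0.14, so both targets were low in the groups labelled for them; a second, dimmer probe of Usp7 gave a difference of only 0.028 (SE 0.062). Median sample signals were 124 to 196 units, over median backgrounds of 39.5 to 44.0, and 85.2% to 98.3% of probes were above background. Replicate 4 of USP7-si stood apart: its median absolute log2 ratio was 0.055, against 0.11 to 0.15 on the other 11 arrays, so the USP7-si differences of the 10 genes are also given without it, singly or as a range.

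The differences described below concern mostly Ccn1, Ccn5, Thbs2 and Sparc, and RefSeq promoter windows on GRCm38.p6 were at hand for 3 of these and for 5 of the 10 genes in all. The 250 bases before the start of those 3 are shown, and whether the letters bear on the differences was not tested. Capitals mark a TEAD site (CATTCC), a cAMP response element core (TGACGT) or a TATA box (TATAAA), on either strand. The windows are Ccn1 at chr3:145649986-145650235, Thbs2 at chr17:14694263-14694512 and Sparc at chr11:55420081-55420330, all on the minus strand and written 5′ to 3′.
Ccn1: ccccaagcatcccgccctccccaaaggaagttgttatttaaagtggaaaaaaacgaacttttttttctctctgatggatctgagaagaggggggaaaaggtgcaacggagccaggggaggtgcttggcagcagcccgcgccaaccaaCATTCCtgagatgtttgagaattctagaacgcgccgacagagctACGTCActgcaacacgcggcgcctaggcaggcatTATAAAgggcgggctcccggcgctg
Thbs2: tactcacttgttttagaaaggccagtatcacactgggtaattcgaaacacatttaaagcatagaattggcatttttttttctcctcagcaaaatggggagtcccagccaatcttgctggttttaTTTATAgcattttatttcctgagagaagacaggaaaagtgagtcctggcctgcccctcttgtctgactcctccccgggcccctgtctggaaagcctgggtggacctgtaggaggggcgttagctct
Sparc: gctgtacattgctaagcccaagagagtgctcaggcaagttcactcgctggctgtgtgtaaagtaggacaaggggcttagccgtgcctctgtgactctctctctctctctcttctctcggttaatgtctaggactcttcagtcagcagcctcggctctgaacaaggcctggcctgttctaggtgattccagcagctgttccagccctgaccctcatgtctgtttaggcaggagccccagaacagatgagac

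The Ccn1 window held a TEAD site that begins 103 bases before the start, the cAMP response element core on the opposite strand 59 bases before it and a TATA box 25 bases before it. It also held the GC box letters GGGCGG right after the TATA box and once more on the opposite strand. The Thbs2 window held TATAAA on the opposite strand, 126 bases before the start, and the SMAD letters GTCTG 66 and 43 bases before it, and the Sparc window held GTCTG 35 bases before the start. None of these matches overlapped, and the AP-1 letters TGANTCA and the CArG box, also searched on both strands, had no match in the 3 windows. The windows of Postn and Tnc, which are not shown, held TATAAA and GTCTG too, and those of Tnc also held GGGCGG. Among 32851 windows of the same length, CATTCC was found in 12.6%, TGACGT in 6.47%, TATAAA in 12.4%, GGGCGG in 32.7%, GTCTG in 42.2%, TGANTCA in 6.75% and the CArG box in 1.47%. A match is a description of the letters, not of a bound site.

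In the mature adipocytes of the control group, 9 of the 10 genes stood below the undifferentiated reference. The mean log2 ratio was below -1 for 8 of 10, where 2% of all 18295 genes lay below -1, and 9 of 10 were below 0, against 50.6% of all genes. These ratios are among the values the genes were taken up with. They are those of the brightest probes, and the dimmer probes of Thbs1, Postn and Tnc stood above -1, as given below. In USP7-si 8 of 10 were below -1 (1.66% of all genes), and in TIP60-si 8 of 10 (2.46%). In TIP60-si these included Sparc, at -1.19 against -0.98 in control-si, and left out Ccn5, which stood just above the line at -0.99. The second Sparc probe was below -1 in all 3 groups. Ccn4, a Wnt-induced member of the family also called WISP1, had the most negative ratio at -3.10 ± 0.082 (SD, n = 4). Ccn3 was the exception at 0.35 ± 0.058, but its probe was near background: the sample dye was above background on 9 of 12 arrays and the reference dye on 4 of 12. In bulk RNA, fewer cells of a type and less RNA per cell cannot be told apart.

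**Figure D1:**
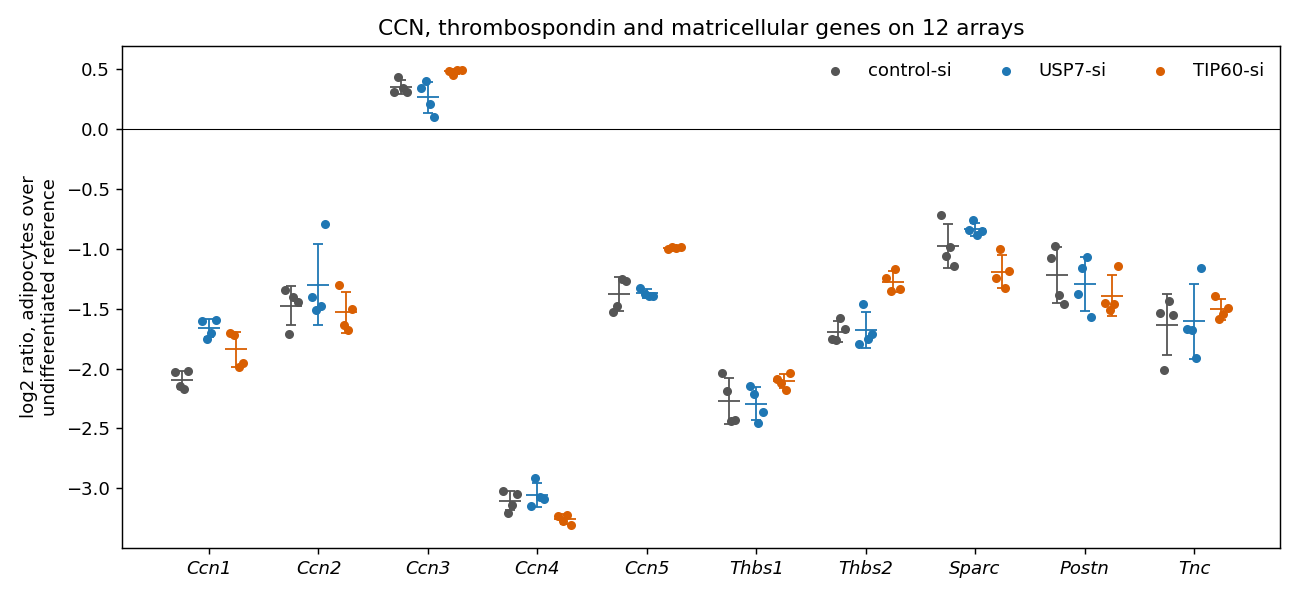
Dye-corrected log2 ratio of adipocyte over undifferentiated reference for the 10 genes, 1 point per array, coloured by group, with the group mean and SD (n = 4). All genes but Ccn3 lie below 0 on all 12 arrays and Ccn3 lies above on all 12; Ccn1 is higher in the 4 USP7-si arrays, and Ccn5 and Thbs2 in the 4 TIP60-si arrays, than in the 4 control-si arrays.

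Most of these genes differed little between control-si and USP7-si. With USP7 silenced, Ccn1 was higher by 0.43 (SE 0.071) and was the only 1 of 10 past an adjusted p of 0.05, a threshold that 0.137% of all genes passed in that comparison. By the brightest probes, it was also the only 1 of 10 whose 4 arrays did not overlap those of control-si, where 5.48% of genes did not. The other 9 differences lay between -0.087 and 0.18, and between -0.14 and 0.15 without the USP7-si array that stood apart. With TIP60 silenced, Ccn5 was higher by 0.39 (SE 0.061) and Thbs2 by 0.42 (SE 0.074), and these were the 2 of 10 past the threshold, which 5.21% of all genes passed. Of the 10, 5 did not overlap control-si (14.2% of all genes): Ccn1, Ccn3, Ccn5 and Thbs2 were higher and Ccn4 was lower on all 4 arrays. Both comparisons use the same 4 control-si arrays, and since the genes were chosen with these differences known, nothing is read from the counts.

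**Figure D2:**
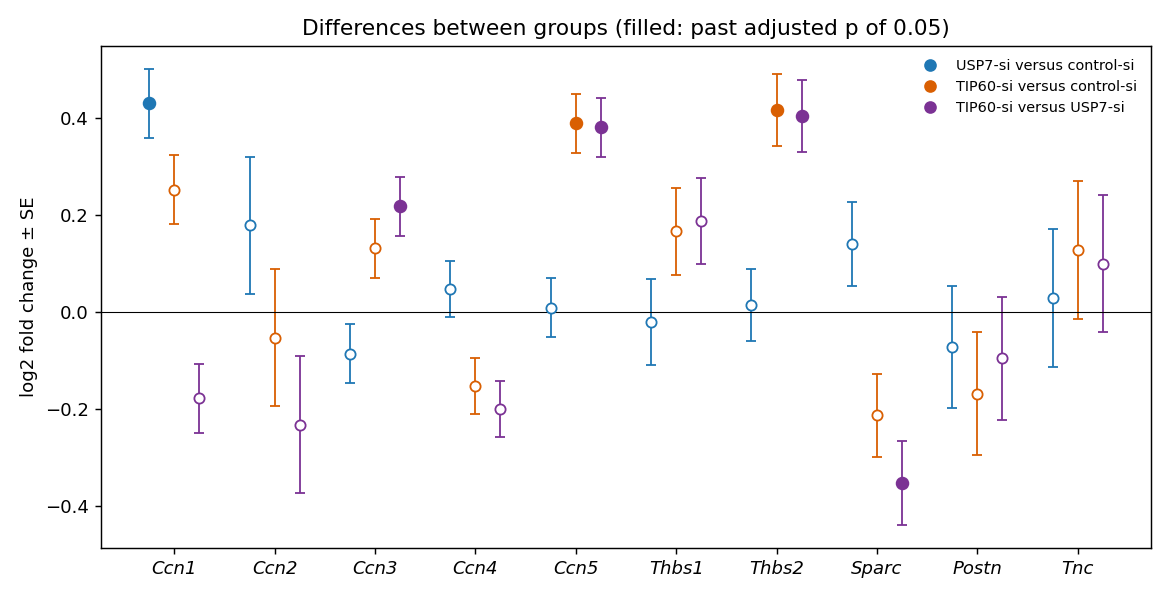
Log2 fold change with its SE for the 10 genes in 3 comparisons, from 1 model over 12 arrays, with filled points past an adjusted p of 0.05. Ccn1 is filled for USP7-si versus control-si (0.43, but -0.14 when arrays are scaled to an equal spread), Ccn5 and Thbs2 for TIP60-si versus both other groups, and Ccn3 (higher) and Sparc (lower, but 0.092 with that scaling) for TIP60-si versus USP7-si.

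Ccn1 encodes a secreted integrin ligand and is an immediate early gene, switched on fast by growth factors. Its ratios were -2.03, -2.14, -2.17 and -2.02 on the control-si arrays, -1.60, -1.75, -1.71 and -1.59 on the USP7-si arrays and -1.70, -1.72, -1.98 and -1.95 on the TIP60-si arrays. All 8 knockdown arrays lay above the 4 control-si arrays, and the knockdown groups overlapped each other. The means were -2.09 ± 0.075, -1.66 ± 0.078 and -1.84 ± 0.15 (SD, n = 4), so Ccn1 in USP7-si was 1.35-fold its control-si value and still below the reference. The USP7-si difference was 0.45 on the arrays with the sample in Cy3, 0.41 on those with it in Cy5 and 0.40 without the USP7-si array that stood apart. It was past the threshold in 11 of 26 alternatives and lost it whenever any 1 of the 8 arrays of the 2 groups was left out, with differences of 0.40 to 0.46; scaling the arrays to an equal spread turned it to -0.14. The TIP60-si difference of 0.25 (SE 0.071) was not past the threshold; it was in 6 of 26 alternatives, the authors' deposited values among them (0.26).

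Ccn2, connective tissue growth factor, is a target gene of TGF-beta and of YAP. Its ratios were -1.35, -1.71, -1.40 and -1.44 in control-si, -1.40, -1.51, -1.48 and -0.79 in USP7-si and -1.30, -1.64, -1.68 and -1.51 in TIP60-si. The 3 groups overlapped, and 1 USP7-si array, the replicate 4 that stood apart, was higher than the other 11. The differences from control-si were 0.18 (SE 0.14) for USP7-si and -0.054 (SE 0.14) for TIP60-si. Without that array the USP7-si difference was -0.011. Its sample signal was low, 79.2 to 110 units, so the ratio was measured on a dim spot in the adipocytes.

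Ccn5, also called WISP2, is a CCN protein that lacks the carboxy-terminal domain of the other members. Its ratios were -1.53, -1.48, -1.25 and -1.27 in control-si, -1.32, -1.38, -1.39 and -1.39 in USP7-si and -1.0, -0.99, -0.99 and -0.99 in TIP60-si. The 4 TIP60-si arrays were above all 8 others and nearly alike, with an SD of 0.0088, while USP7-si lay within the range of control-si. Ccn5 in TIP60-si was 1.31-fold its control-si value and 1.30-fold its USP7-si value. The difference from control-si was 0.39 on the arrays with the sample in Cy3 and 0.39 on those with it in Cy5. It stayed between 0.26 and 0.49 over 26 alternatives and was past the threshold in 22 of them, among these all 12 that left out 1 array.

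Ccn4 was lower in TIP60-si by 0.15 on the log2 scale without passing the threshold. The means were -3.10 ± 0.082 in control-si, -3.06 ± 0.10 in USP7-si and -3.26 ± 0.040 in TIP60-si (SD, n = 4), and the 4 TIP60-si arrays, from -3.31 to -3.22, lay below all 8 others. Scaling the arrays to an equal spread turned this difference to 0.23, and the one from USP7-si from -0.20 to 1.21. Ccn3, known as NOV, had means of 0.35 ± 0.058, 0.27 ± 0.13 and 0.48 ± 0.022, with all 4 TIP60-si arrays (0.45 to 0.50) above all 8 others (0.10 to 0.44). Since the Ccn3 probe was near background in the reference dye on most arrays, its ratio is a weak measure of the level.

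Thrombospondin 1 is a trimeric protein that binds CD47 and CD36 and can activate latent TGF-beta; thrombospondin 2 is its close relative and does not activate it. Thbs1 had ratios of -2.04, -2.19, -2.44 and -2.43 in control-si and -2.15, -2.21, -2.45 and -2.36 in USP7-si. In TIP60-si they were -2.09, -2.12, -2.18 and -2.04. The groups overlapped, and the differences from control-si were -0.021 (SE 0.089) for USP7-si and 0.17 (SE 0.089) for TIP60-si. Thbs2 had ratios of -1.75, -1.76, -1.58 and -1.67 in control-si, -1.79, -1.46, -1.75 and -1.71 in USP7-si and -1.24, -1.35, -1.17 and -1.33 in TIP60-si. All 4 TIP60-si arrays were above the 8 others, while control-si and USP7-si overlapped. Thbs2 in TIP60-si was 1.33-fold its control-si value. The Thbs2 difference was 0.46 with the sample in Cy3 and 0.37 with it in Cy5, lay between 0.23 and 0.55 over 26 alternatives and was past the threshold in 22, all 12 that left out 1 array included.

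Sparc encodes a collagen-binding glycoprotein that restrains fat cell formation in mice. Its ratios were -0.72, -1.06, -0.98 and -1.14 in control-si, -0.85, -0.76, -0.89 and -0.85 in USP7-si and -1.25, -1.0, -1.33 and -1.19 in TIP60-si. USP7-si and TIP60-si did not overlap each other, and control-si overlapped both. The differences from control-si were 0.14 (SE 0.086) and -0.21 (SE 0.086), and neither was past the threshold. On a log2 scale the TIP60-si difference was -0.44 with the sample in Cy3 and 0.0081 with it in Cy5, so it was seen in 1 dye orientation only.

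Postn and Tnc did not separate the groups. Postn, whose product periostin binds collagen, had means of -1.22 ± 0.23 in control-si, -1.29 ± 0.22 in USP7-si and -1.39 ± 0.17 in TIP60-si (SD, n = 4), with 12 arrays between -1.57 and -0.98. Its reference signal ran from 37712 to 64871 units where the scanner's 16-bit scale ends at 65535, and its fitted dye term was 0.37; how far a ceiling in the reference shrank these ratios was not tested. Tnc, for the hexameric matrix protein tenascin C, had means of -1.63 ± 0.26, -1.60 ± 0.32 and -1.51 ± 0.085, on a dim spot with a sample signal of 93.7 to 163 units. In USP7-si replicate 4 it stood at -1.16, above the other 11 arrays; the USP7-si difference from control-si was 0.028 (SE 0.14) with that array and -0.14 without it. On the scale of ratios over the reference, the authors' deposited values gave Tnc means of -1.86 in USP7-si and -1.68 in control-si. For Ccn2 they gave -1.53 in USP7-si and -1.53 in control-si. Over the 10 genes and 3 groups, 390 values came from the alternatives run for the ratios over the reference (other background corrections, normalizations, the authors' values, the mean over probes, 1 dye orientation or 1 array fewer). Of these, 0 changed sign and 308 stayed within 1 SD.

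Set against each other, the knockdowns differed in 4 of 10 genes past the threshold, where 9.66% of all genes were. Ccn5 was higher in TIP60-si by 0.38 (SE 0.061), Thbs2 by 0.40 (SE 0.074) and Ccn3 by 0.22 (SE 0.061), while Sparc was lower, at -0.35 (SE 0.086). Of the 10, 5 did not overlap, Ccn4 (lower) being the fifth, against 18.4% of all genes. Without the USP7-si array that stood apart, Ccn5 differed by 0.37, Thbs2 by 0.39, Ccn3 by 0.16 and Sparc by -0.36, and of these Ccn5 and Thbs2 were past the threshold. Sparc also lost the threshold when replicate 1 or 3 of TIP60-si or replicate 1, 2 or 3 of USP7-si was left out (-0.37 to -0.30), and scaling the arrays turned it to 0.092. Ccn3 kept it in 5 of 25 alternatives; its difference was 0.091 without background correction and 0.085 in the authors' deposited values, on a probe whose reference dye was above background on 4 of 12 arrays. Of the other 6 genes, differences between the knockdowns ran from -0.21 to 0.27 without USP7-si replicate 4.

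**Figure D3:**
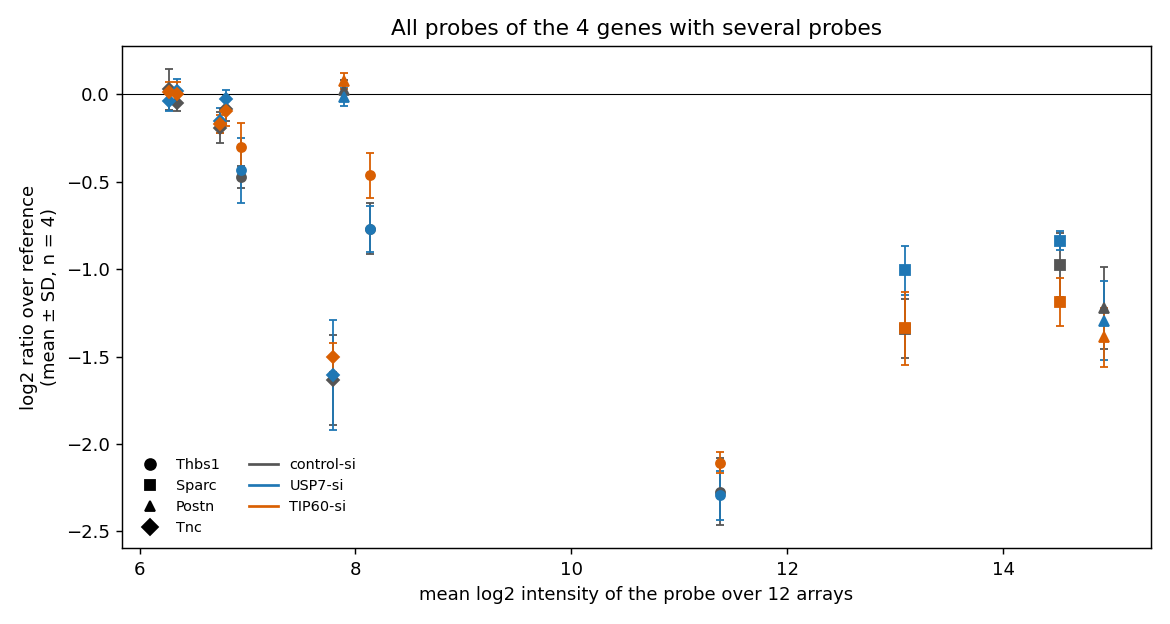
Mean log2 ratio over reference with its SD (n = 4 per group) against the mean log2 intensity of each probe, for the 4 genes with more than 1 probe, by gene (symbol) and group (colour). The brightest probes of all 4 genes lie well below 0; the dimmer probes of Thbs1, Postn and Tnc lie nearer to 0, and the dimmer Sparc probe lies further below 0 in all 3 groups.

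Thbs1, Sparc, Postn and Tnc had several probes each. The dimmer probes of Thbs1, Postn and Tnc gave ratios nearer to 0, and that of Sparc gave ratios further below 0. Of the 5 Tnc probes, 4 had group means between -0.19 and 0.029, against -1.63 to -1.51 for the brightest. Those 4 were dim, with median sample signals of 58.5 to 95.9 units, beside 109 for the brightest. The 2 brightest of those 4 had the sample dye above background on 12 of 12 arrays, with group means of -0.19 to -0.029. The Tnc probes thus disagreed on the ratio, and all are weak measures of the level. The sample dye of the dimmest was above background on 6 of 12 arrays. The second Postn probe stood at -0.017 to 0.075, against -1.39 to -1.22 for the brightest. Its median signals were 221 units in the sample and 218 in the reference, with the sample dye above background on 11 of 12 arrays. The Postn probes thus disagreed on whether the gene lay below the reference. The 2 other Thbs1 probes were below the reference too, at -0.77 and -0.47 in control-si, and their TIP60-si differences were 0.31 (SE 0.086) and 0.17 (SE 0.087), beside 0.17 for the brightest. On the former of these probes all 4 TIP60-si arrays, -0.60 to -0.29, lay above all 4 control-si arrays, -0.90 to -0.63. Its TIP60-si versus USP7-si difference of 0.31 (SE 0.086) was past the threshold, with the arrays of these groups overlapping. The second Sparc probe, also bright, gave -1.34 ± 0.17 in control-si, -1.01 ± 0.14 in USP7-si and -1.34 ± 0.21 in TIP60-si (SD, n = 4). It differed by 0.33 (SE 0.11) between USP7-si and control-si and by 0.0018 (SE 0.11) between TIP60-si and control-si, so the probes of Sparc disagreed on where control-si lay and gave about the same TIP60-si versus USP7-si difference, -0.33 and -0.35. On the second Sparc probe all 4 USP7-si arrays, -1.12 to -0.82, lay above all 4 control-si arrays, -1.50 to -1.19. Ccn1 to Ccn5 and Thbs2 had 1 probe each.

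For 4 of the genes, those with the most similar profile over the 12 arrays were looked up among 12173 named genes above the median intensity. Ccn1 ran most like Fos (r = 0.93), an immediate early transcription factor gene, then St3gal5 (0.93) and Sgms1 (0.90), enzymes of ganglioside and sphingomyelin synthesis. Ccn2 ran most like Smoc2 (0.98), another matricellular gene, Ppfibp2 (0.96) and En1 (0.96), and these fell to 0.93, 0.88 and 0.88 over 11 arrays without USP7-si replicate 4. Thbs1 ran most like the respiratory chain gene Ndufs3 (0.88), the desaturase gene Scd2 (0.87) and Pitpnm1 (0.87), and Sparc most like Nol4 (0.96), Zfhx4 (0.94) and Zfp318 (0.89). The arrays share the reference, the groups and the normalization, and the genes are the highest of many, so these values describe likeness only.

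Genes around the 10 were read from 6 lists, of which 115 of 119 genes were measured. They hold other matricellular genes, their receptors, the Hippo pathway, YAP and TAZ target genes, genes of serum response factor (SRF) and its cofactors MRTF, and the TGF-beta pathway. In USP7-si versus control-si, 0 of 115 were past the threshold in limma, beside 0.137% of all genes. At an unadjusted p below 0.05 there were 18 of 115, beside 7.21% of all genes, and 1 was past the threshold with array quality weights. The list medians lay between -0.012 and 0.071, beside 0.0039 over all genes. The Hippo kinase gene Lats2 had the smallest p of its list (0.27, SE 0.060, adjusted p = 0.186), the osteopontin gene Spp1 that of the matricellular list (-0.52, SE 0.13, adjusted p = 0.257) and the smooth muscle actin gene Actg2 that of the SRF list (-0.27, SE 0.059, adjusted p = 0.188). With the arrays scaled, Lats2 turned to -0.13 and Spp1 to 0.25. Among the 20 YAP and TAZ target genes other than Ccn1 and Ccn2, 0 passed the threshold, 4 had an unadjusted p below 0.05 and the median was 0.071.

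In TIP60-si versus control-si, 13 of 115 passed it, 6 higher and 7 lower, beside 5.21% of all genes, and the list medians lay between -0.080 and 0.031, beside -0.0047 over all genes. In the TGF-beta list 3 of 21 passed the threshold, all higher. The receptor gene Tgfbr1 rose by 0.42 (SE 0.050, adjusted p = 0.000689) and the signal transducer gene Smad3 by 0.28 (SE 0.060, adjusted p = 0.0191). The latent TGF-beta binding gene Ltbp2 rose by 0.42 (SE 0.093, adjusted p = 0.0228). In the Hippo list 1 of 16 passed the threshold: Mob1a, which encodes an activator of the LATS kinases, was at -0.66 (SE 0.062, adjusted p = 0.000133). Of 20 YAP and TAZ target genes, the tissue factor gene F3 rose by 0.30 (SE 0.056, adjusted p = 0.00915), and Arhgef17 (-0.23, adjusted p = 0.0357) and Igfbp3 (-0.25, adjusted p = 0.0490) fell. Of 19 genes of the SRF and MRTF list, the tropomyosin gene Tpm1 (-0.32, adjusted p = 0.00476) and Fhl2 (-0.35, adjusted p = 0.00513) fell and 0 passed the threshold upward.

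Among 20 matricellular genes outside the 10, the tenascin gene Tnxb alone passed the threshold in TIP60-si, higher by 0.51 (SE 0.12, adjusted p = 0.0363). A further thrombospondin gene, Thbs3, did not pass the threshold and was lower on all 4 arrays, at -0.19 (SE 0.052, adjusted p = 0.0630). Among 20 receptors of these proteins, the integrin gene Itgb3 rose by 0.21 (SE 0.049, adjusted p = 0.0301), while Itgb8 (-0.37, adjusted p = 0.0151) and the thrombospondin receptor gene Cd47 (-0.30, adjusted p = 0.04997) fell. Of the 13 genes, Mob1a was past the threshold in 24 of 26 alternatives, Tgfbr1 in 22, F3 in 21, Tpm1 and Fhl2 in 20, Smad3 in 17, Itgb8 and Ltbp2 in 16, Tnxb and Itgb3 in 11, and Igfbp3, Cd47 and Arhgef17 in 7 or 8; Igfbp3 turned to 0.17 with the arrays scaled. The count fell to 6 without control-si replicate 2, 5 without control-si replicate 4 and 6 without TIP60-si replicate 3.

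**Figure D4:**
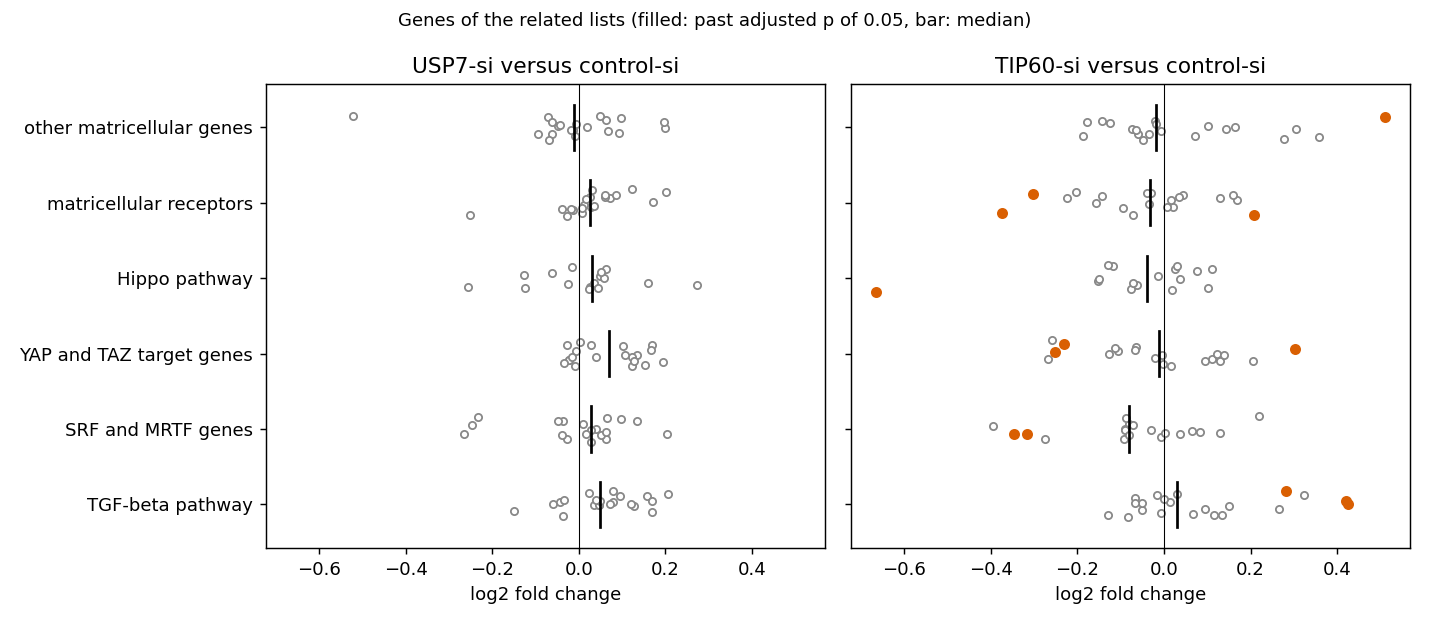
Log2 fold change of each measured gene of the 6 related lists, 1 point per gene, in USP7-si versus control-si (left) and TIP60-si versus control-si (right), with a bar at the list median and filled points past an adjusted p of 0.05. No point is filled on the left and 13 are on the right, 6 above 0 and 7 below.

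Between the knockdowns, 24 of 115 genes of these lists were past the threshold in TIP60-si versus USP7-si, 10 higher and 14 lower, beside 9.66% of all genes. The count was 13 without USP7-si replicate 1, 16 without TIP60-si replicate 3 and 19 without USP7-si replicate 4. Spp1 was higher in TIP60-si by 0.83 (SE 0.13, adjusted p = 0.00197), and Thbs3 (-0.28, adjusted p = 0.00533) and Lats2 (-0.43, adjusted p = 0.00134) were lower, but with the arrays scaled the signs of all 3 turned, to -0.30, 0.022 and 0.18. Mob1a was again lower, at -0.69 (SE 0.062, adjusted p = 5.34e-05).

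Markers of cell state were read beside these values. The median of 10 adipocyte markers lay at 2.53 to 2.93 on the control-si arrays, 2.28 to 2.79 on the USP7-si arrays and 2.66 to 3.17 on the TIP60-si arrays, with Adipoq at 5.79 ± 0.24 (SD, n = 4) in control-si, so the samples carried the fat cell transcripts their label names. The median of 8 preadipocyte or fibroblast markers lay at -0.53 to -0.35, -0.60 to -0.35 and -0.46 to -0.38. The list was split in control-si, with Ly6a (2.10), Thy1 (0.52) and Vim (0.11) above the reference. Dlk1, Pdgfra, Pdgfrb, Col1a1 and Cd34 stood below it, from -1.45 to -0.094. Of those 8, 4 were above 0 and 4 below in TIP60-si versus control-si, and 1 passed the threshold: Thy1 rose (0.26, SE 0.058, adjusted p = 0.0228), while Col1a1 (-0.27, adjusted p = 0.280) and Pdgfra (-0.22, adjusted p = 0.134) did not pass. In USP7-si 0 passed. Of 4 endothelial markers, Tek rose in USP7-si (0.35, SE 0.047, adjusted p = 0.0104) and in TIP60-si (0.27, SE 0.047, adjusted p = 0.00630), and the medians of the 4 lay at -0.21 to 0.034 in control-si, -0.12 to 0.037 in USP7-si and -0.11 to -0.024 in TIP60-si. The 5 macrophage markers had medians of -0.023 to 0.25 and the 4 muscle markers of -0.20 to -0.089 over the 12 arrays, with 0 past the threshold in either comparison with control-si. The part of any of these in the values of the 10 genes was not tested.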

How the data were processed

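RNA of 12 samples was measured on 2-colour arrays, 4 per group. Per the deposited protocol text, the authors scanned on an Agilent G2565BA scanner, extracted features with Imagene and normalized by print-tip loess on the gene probes without background correction; software versions are not given in the sources used here. The deposited scanner files hold linear intensity values per spot and dye, signal and local background, and the authors' normalized files hold the intensity after their normalization. The deposited value table holds the authors' log2 ratios of sample over reference, which matched those files to within 5e-06, with column medians from -0.00915 to 0.00526.

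The scanner intensities were corrected with normexp (offset 50) and loess within each array, control spots at weight 0, in limma 3.58.1 under R 4.3.3. One model over the 12 arrays with group and dye orientation was fitted with lmFit and eBayes. Each two-sided test was adjusted by Benjamini-Hochberg over 41174 gene probes, and an adjusted p below 0.05 was the threshold. Above background means over 2 background SDs above it. The script was tested on simulated data. Precision is limited by the number of arrays.

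The 10 genes, the lists and the tests were chosen with earlier results of these data known. Named by rule were the 10 genes, Usp7 and Kat5; per related list, up to 3 genes with the smallest p in either knockdown and any past the threshold; and for Ccn1, Ccn2, Thbs1 and Sparc the 3 genes with the highest Pearson correlation. Named after their values were seen were the markers Adipoq and Tek and the 8 preadipocyte or fibroblast markers. Of the list genes, 4 were not analysed here. Promoter sequences are from RefSeq. Alternatives covered the background correction, normalization, dye term, replicate block, weights, dim probes, samples and probes.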

Additional observations from a re-analysis of the deposited data

Results flagged for a closer look

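In 3 of the 57 groups of 4 arrays tested for a sample far from the others, 1 array lay far out, where chance alone flags about 1 in 20. Ccn2 stood at -0.79 on USP7-si replicate 4, with the other 3 USP7-si arrays between -1.51 and -1.40. Postn stood at -1.14 on TIP60-si replicate 4, with the other 3 between -1.51 and -1.45. Kat5 stood at -0.39 on control-si replicate 2, with the other 3 between -0.14 and -0.090. All are log2 ratios over the reference on the array named, and the cause was not tested.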

How the results depend on the processing

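Each comparison was refitted under 26 alternatives, 12 of them without 1 array. The number of the 10 genes past the threshold was 1 for USP7-si versus control-si, 2 for TIP60-si versus control-si and 4 between the knockdowns. It fell for the USP7-si comparison to 0 with plain background subtraction, median centring, arrays scaled to an equal spread, quantile normalization, no dye term and either dye orientation alone; for TIP60-si versus control-si to 0 with median centring, scaling and either orientation alone; and for TIP60-si versus USP7-si to 2 with plain subtraction and with Cy3 arrays only and to 0 with median centring, scaling and Cy5 arrays only. Without 1 array these counts ran from 0 to 1, 2 to 3 and 2 to 5. Of the related genes, 0, 13 and 24 were past it. Array weights gave 1 for USP7-si. For TIP60-si versus control-si the count was 6 with plain subtraction, 0 with median centring, 0 with scaling, 4 with no dye term, 8 with the mean over probes and 1 with either orientation alone. For TIP60-si versus USP7-si it was 12 with plain subtraction, no dye term and Cy3 arrays only, and 1 with median centring, scaling and Cy5 arrays only. Without 1 array these ran from 0 to 1, 5 to 14 and 13 to 25. Single-orientation fits use 6 arrays, and scaling stretched the ratios of USP7-si replicate 4, as given below. The cause of the other changes was not tested.

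Among the 10 genes and the named genes of the 6 lists, scaling the arrays to an equal spread turned 11 of the 38 differences past the threshold. It also turned 45 that were not past it. Those past it were these. Ccn1 turned to -0.14 in USP7-si versus control-si and Igfbp3 to 0.17 in TIP60-si versus control-si. In TIP60-si versus USP7-si, Sparc turned to 0.092, Cd47 to 0.12, Cnn2 to 0.58, Fhl2 to 0.67, Lats2 to 0.18, Spp1 to -0.30, Tgfbr1 to -0.027, Thbs3 to 0.022 and Tpm1 to 0.43. The scaling divided each array's ratios by a factor set by its median absolute log2 ratio, which was 0.055 on USP7-si replicate 4. On that array Ccn1 stood at -1.70 before scaling, with the other 3 USP7-si arrays at -1.85 to -1.49 (ratios before the dye correction). After scaling Ccn1 stood at -3.63, with the others at -1.79 to -1.59, and Ccn4 went from -3.10 to -6.63 on that array. For same-numbered arrays, which share the dye orientation, the deviations from the group means had correlations from -0.29 to 0.31, above 0.1 in 4 of 12 pairs. Arrays of other numbers with the same dye orientation ran from -0.46 to 0.0012. Whether the numbers pair the samples was therefore not settled, and the main model did not pair them. With the replicate block in place of the dye term the counts were 1, 3 and 4 of the 10 genes and 0, 12 and 27 related genes. Ccn3 had no value with dim probes left out.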
